A study of Saccharomyces cerevisiae with 3 samples.

Results

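Fatty acid metabolism of stationary-phase budding yeast was followed here through 10 genes, which cover the synthesis of saturated fatty acids (ACC1, FAS1, FAS2), their desaturation (OLE1) with its transcriptional activators (MGA2, SPT23), elongation (ELO1) and activation to acyl-CoA (FAA1, FAA3, FAA4). The genes were chosen by name, as those 10 of the 5449 Saccharomyces cerevisiae genes with a named probe set on the array. Each of the 10 had 1 probe set, so no choice between probe sets was needed. The study hybridized RNA of cells grown at 30 °C in synthetic medium, without treatment, to 3 single-colour Affymetrix arrays. Of these, 2 are labelled as the RPA12 deletion (genotype RPA12 delta) and 1 as wild type, and the background of all 3 is given as BY4741, a haploid MATa laboratory strain carrying his3Δ 1, leu2Δ 0, met15Δ 0 and ura3Δ 0. The product of RPA12 is a subunit of RNA polymerase I. The growth text of the wild-type array also names deletion cells, and its genotype label was followed. The labels do not say whether the 2 deletion arrays came from separate cultures or clones. Any p-value or standard error (SE) here rests on the spread between these 2 arrays alone, which may be technical.

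In yeast, acetyl-CoA carboxylase commits acetyl-CoA to malonyl-CoA, and the two-subunit fatty acid synthase builds palmitoyl- and stearoyl-CoA from it. The only desaturase, Ole1, an oxygen-dependent enzyme of the endoplasmic reticulum, then makes the monounsaturated chains that keep membranes fluid. OLE1 transcription is switched on by Mga2 and Spt23, which sit in the same membrane until they are cut loose, and it is repressed when unsaturated fatty acids are supplied. Fatty acids taken up or released from stored lipid are made usable by acyl-CoA synthetases, chiefly Faa1 and Faa4.

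The labels need a caution before any result. On the deletion arrays RPA12 itself read 5.74 and 5.79, against 3.60 in the wild type, and was thus 4.48-fold brighter in the group said to lack it (limma adjusted p = 0.00898). All 7 markers of a cells were above background on every array, with summed linear levels of 379 and 390 on the deletion arrays against 628, and of them MFA2 fell 4.62-fold while ASG7 and BAR1 rose 2.29-fold and 2.11-fold as deposited but were under 2-fold apart after either rescaling. The 5 markers of α cells were all above background on the deletion arrays and 3 of 5 on the wild-type array, with summed linear levels of 830 and 769 against 54.0. Of the 4 genes altered in the stated background, MET17 (MET15) read 9.43 and 9.36 against 1.56, which is not above background, and HIS3 9.27 and 9.30 against 6.73, while LEU2 differed by -0.16 (0.01 after quantile normalization again) and URA3 was not above background on any array. The 42 probe sets for poly-A transcripts spiked into the RNA had a median difference of -3.75. The 27 probe sets for hybridization controls had one of -1.48. Array handling and group therefore cannot be told apart. Control probe sets at both ends of 7 yeast transcripts gave a 5′ change minus 3′ change with a median of -0.49 and a range of -1.27 to 1.37. The part of strain, cell type, handling and RNA integrity in the results was not tested. Every direction therefore compares arrays by their labels, the deletion group against the wild type.

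The deposited values are on a log2 scale (RMA probe-set summaries), and a difference of 1 is 2-fold. "Rose" and "fell" require a difference of at least 2-fold beside a limma adjusted p under 0.05, because 44.2% of the 5498 tested probe sets had exactly the same value on both deletion arrays, which leaves limma no spread to work with. All 10 fatty acid genes lay above the background level of 1.42 on each deletion array and 1.84 on the wild-type array. The number of arrays limits the precision of every value.

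Of the 10 genes, 4 fell (OLE1, FAA4, ACC1 and MGA2), 1 rose (ELO1) and 5 were under 2-fold apart. Among all tested probe sets 10.2% fell and 23.8% rose, and by the 2-fold limit alone 11.0% were lower and 24.4% higher. The 4 falls among 10 thus stand beside a background of about 1 in 10, for genes chosen with results of these data known. The same shares of all tested probe sets are the background for the counts in the other lists. The median difference of the 10 genes was -0.87, beside 0.19 for all tested probe sets. In 8 genes both deletion arrays read below the wild type, as they did for 34.4% of all tested probe sets, and in 2 both read above it, as for 56.0%. The gap between the deletion arrays was at most 0.21 for any of the 10 genes, and the smallest difference from the wild type was 0.38, and the groups did not overlap for any of them, nor for 90.4% of all tested probe sets, so nothing was read from the lack of overlap. By limma's adjusted p alone all 10 genes passed, 8 lower and 2 higher, where 29.7% of all tested probe sets were lower and 50.4% higher, and nothing was read from that count.

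**Figure D1:**
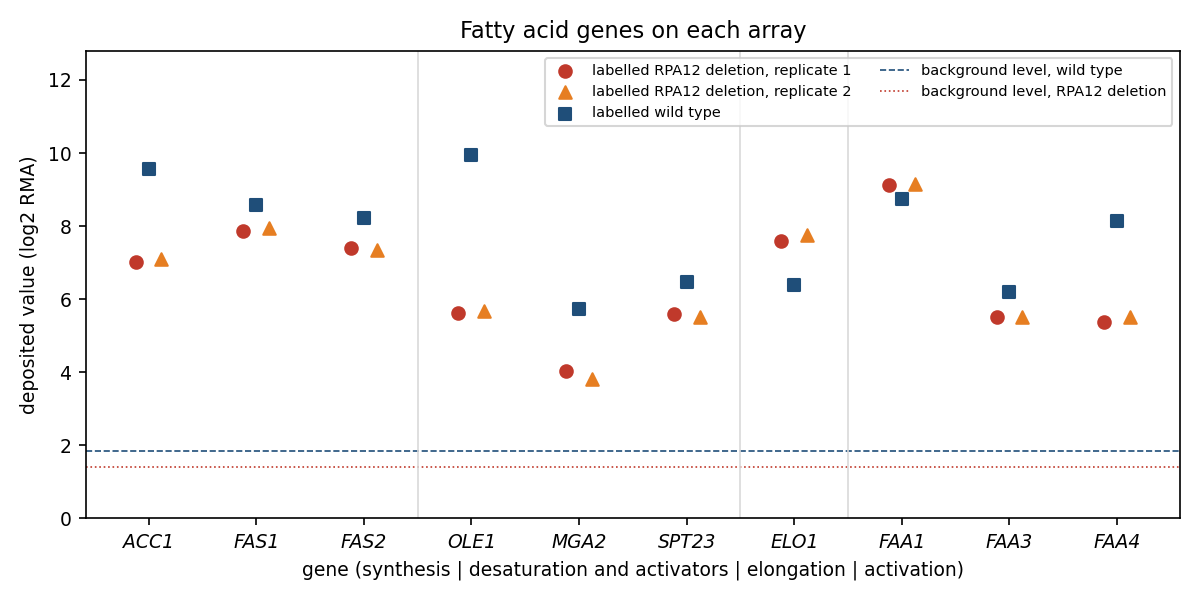
Deposited log2 RMA value (vertical axis) of each of the 10 genes (horizontal axis, by role) on the 3 arrays. Circles and triangles are the arrays labelled RPA12 deletion, squares the wild-type array, and the lines are the background levels of 1.42 and 1.84. The squares stand far above the other symbols for ACC1, OLE1, MGA2 and FAA4, and below them for ELO1 and FAA1.

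OLE1 (YGL055W), the Δ9 fatty acid desaturase, had the largest difference of the 10. It read 5.61 and 5.68 on the deletion arrays and 9.95 on the wild-type array, with both deletion arrays far below. The difference was -4.30 ± 0.055 (SE), a 19.7-fold fall (limma adjusted p = 0.0055). Only 16 of the 5498 tested probe sets had a lower difference. The genes next to it in that ranking were SIP18 at -4.33 and PUT4 at -4.45 on the one side, and SHH3 at -4.25 and PHM7 at -4.24 on the other. SIP18 encodes a hydrophilin of dry and starved cells and PUT4 a proline permease.

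MGA2 (YIR033W), an activator of OLE1, read 4.03 and 3.82 against 5.73 in the wild type. It was lower on both deletion arrays and had the widest gap between them of the 10 genes. The difference was -1.81 ± 0.16 (SE), a 3.50-fold fall (limma adjusted p = 0.0379). Its paralog SPT23 (YKL020C), which acts redundantly with it, read 5.58 and 5.51 against 6.47. SPT23 was thus also lower on both arrays, but under 2-fold, with a difference of -0.92 ± 0.052 (SE). It passed the 2-fold rule when the arrays were median centred, at -1.17, or quantile normalized again, at -1.06. The SPT23 change minus the MGA2 change was 0.82 on one deletion array and 0.96 on the other, and this gap between the paralogs was not tested.

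Among the genes that release or restrain these membrane-bound activators, none of 6 rose or fell, and their median difference was -0.19 as deposited. The median was -0.43 after quantile normalization again and -0.44 after median centring, again with no rise or fall. The values that follow are as deposited. RSP5, the ubiquitin ligase that triggers the cut, read 6.76 and 6.83 against 7.50. UBX2, an endoplasmic reticulum protein that brings Cdc48 to its substrates, read 5.21 on both deletion arrays against 5.95. CDC48, the segregase that frees the processed factor, read 8.80 and 8.77 against 9.17. Its partners differed less, with NPL4 0.35 higher and UFD1 at 5.18 on all 3 arrays. UBX4, another Cdc48 cofactor, likewise had 1 value, 4.85, on all 3 arrays.

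Of the synthesis genes ACC1 fell, and both subunits of the synthase that uses its product were lower by under 2-fold. ACC1 (YNR016C), acetyl-CoA carboxylase, read 7.03 and 7.09 on the deletion arrays and 9.57 on the wild-type array, with both deletion arrays far below. The difference was -2.51 ± 0.052 (SE), a 5.69-fold fall (limma adjusted p = 0.00895).

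FAS1 (YKL182W), the β subunit of fatty acid synthase, read 7.86 and 7.95 against 8.59. FAS2 (YPL231W), the α subunit, read 7.41 and 7.35 against 8.21. Both subunits were lower on both deletion arrays and both were under 2-fold apart, with differences of -0.68 ± 0.072 (SE) and -0.83 ± 0.045 (SE). The FAS2 change minus the FAS1 change was -0.06 on one deletion array and -0.22 on the other. FAS2 reached -1.08, past the 2-fold rule, after median centring, and FAS1 did not, at -0.93.

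Of 4 genes of acetyl-CoA, biotin and acyl-CoA handling, 1 fell and none rose, and all 4 differences were below 0 (median -0.84). ACS1, the acetyl-CoA synthetase used on non-fermentable carbon, read 7.69 and 7.86 against 9.94, a 4.48-fold fall (limma adjusted p = 0.0248). ACS2, the synthetase used on glucose, differed by -0.87. ACB1, the acyl-CoA binding protein, differed by -0.81, and BPL1, which attaches biotin to Acc1, by -0.34. ACS2 and ACB1 also passed the 2-fold rule after median centring, at -1.12 and -1.06.

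Mitochondria hold a separate fatty acid synthesis system that feeds lipoic acid, and its genes went both ways. There were 4 rises and 2 falls among 10 (median difference 0.73), where 23.8% of all tested probe sets rose and 10.2% fell. HTD2, LIP2 and LIP5 each had equal values on both deletion arrays, so their calls rest on the size of the difference alone. PPT2, which activates the mitochondrial acyl carrier protein, rose 4.22-fold. LIP2 and LIP5, which attach and complete lipoic acid, rose 3.44-fold and 2.94-fold. After quantile normalization again the differences of PPT2, LIP2 and LIP5 were 1.52, 1.07 and 1.27, smaller but still past the 2-fold rule. HTD2, the dehydratase, rose 2.16-fold, but its difference was 0.61 after quantile normalization again and 0.86 after median centring, both under 2-fold. ETR1, the enoyl reductase, fell 2.47-fold and CEM1, the ketoacyl synthase, 2.04-fold. HFA1, the mitochondrial counterpart of ACC1, read 3.72 on both deletion arrays against 4.47, and its difference went from -0.75 to -1.31, past the 2-fold rule, after quantile normalization again. HFA1 thus changed less than ACC1, the HFA1 change minus the ACC1 change being 1.80 and 1.73 on the 2 deletion arrays, a gap that was not tested.

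ELO1 (YJL196C), the elongase of medium-length chains, was the only one of the 10 genes that rose. It read 7.60 and 7.75 on the deletion arrays and 6.39 on the wild-type array, both deletion arrays being higher. The difference was 1.29 ± 0.11 (SE), a 2.44-fold rise (limma adjusted p = 0.0366) that ranked 992 from the highest of the 5498 tested probe sets. Among the 5 other genes of the elongation cycle, which makes very long chains, 1 rose and none fell (median 0.49). IFA38, the ketoacyl reductase of the cycle, read 7.62 and 7.67 against 6.45, a 2.30-fold rise (limma adjusted p = 0.0132) that became 0.95, under 2-fold, after median centring. PHS1, the dehydratase, was 0.54 higher, the elongase ELO3 0.49 and the enoyl reductase TSC13 0.43 (limma adjusted p = 0.0685). The elongase ELO2 differed by -0.06 as deposited, by -0.50 after quantile normalization again and by -0.31 after median centring.

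The 3 acyl-CoA synthetases of the set differed in size and direction of change. FAA4 (YMR246W) read 5.39 and 5.51 on the deletion arrays and 8.13 on the wild-type array, with both deletion arrays far below. The difference was -2.68 ± 0.095 (SE), a 6.42-fold fall (limma adjusted p = 0.0153). FAA1 (YOR317W), which shares the import and activation of long chains with Faa4, read 9.12 and 9.14 against 8.75.

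FAA1 was thus slightly higher on both deletion arrays, by 0.38 ± 0.013 (SE), under 2-fold, and by 0.13 after median centring. The FAA4 change minus the FAA1 change was -3.12 on one deletion array and -3.01 on the other, a difference between the paralogs of about the same size on both that was not tested beyond these 2 arrays. FAA3 (YIL009W), a synthetase with a preference for long and very long chains, read 5.51 on both deletion arrays against 6.19. Its difference of -0.68 was under 2-fold, and since its 2 deletion values were equal to every deposited digit, its adjusted p has no spread behind it.

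Of 3 further genes of this kind, 1 fell and none rose. FAT2, listed now as PCS60, a peroxisomal protein of the acyl-CoA synthetase family, read 5.92 and 6.01 against 7.65, a 3.22-fold fall (limma adjusted p = 0.0163). FAA2, the peroxisomal medium-chain synthetase, differed by -0.89, and by -1.02 and -1.14, past the 2-fold rule, after quantile normalization again and after median centring. FAT1, which takes part in fatty acid uptake and activates very long chains, was 0.49 higher (limma adjusted p = 0.0635).

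**Figure D2:**
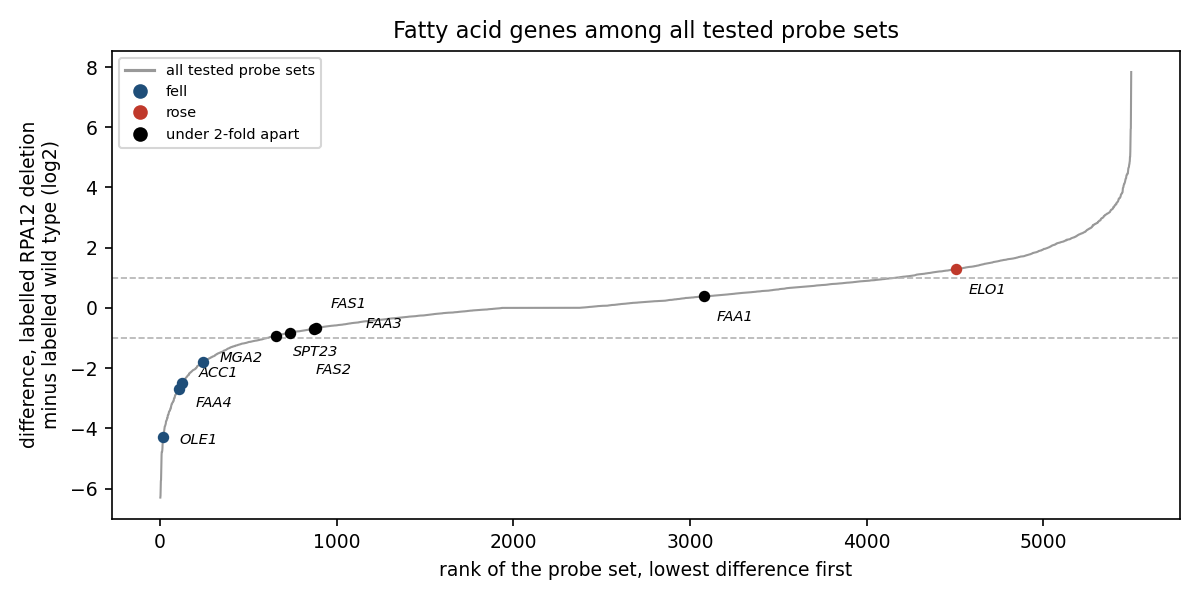
Difference of all 5498 tested probe sets (vertical axis, log2, labelled RPA12 deletion minus wild type) against their rank (horizontal axis), with the 10 genes marked and dashed lines at a difference of 1 and -1. OLE1 is at rank 17 from the lowest, FAA4 at 107, ACC1 at 126 and MGA2 at 240, while FAA1 lies near the middle at 3080.

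Regulators of ACC1, FAS1, FAS2 and OLE1 other than MGA2 and SPT23 gave 2 rises and no fall among 12 as deposited, with a median difference of 0.20. Of all tested probe sets 23.8% rose and 10.2% fell, with a median of 0.19, so nothing was read from the rises or the median. After quantile normalization again there were 2 rises and 2 falls (INO2 and TUP1) and the median was -0.01, and after median centring 2 rises, no fall and a median of -0.05, so the sign of the median is not settled. INO4, whose protein pairs with Ino2 on inositol-responsive promoters of lipid genes, read 5.65 and 5.75 against 4.28, a 2.66-fold rise (limma adjusted p = 0.0232). The INO4 difference was 1.001 after quantile normalization again, barely past the 2-fold rule, and 1.16 after median centring. INO2, the partner of INO4, read 2.79 on both deletion arrays against 3.15, and its difference of -0.36 went to -1.06 after quantile normalization again. REB1, a general DNA-binding factor, read 3.96 on both deletion arrays against 2.18, a 3.44-fold rise that rests on the size of the difference alone. The small differences of several regulators depended on the scaling. RAP1 and ABF1, general factors that bind fatty acid synthase promoters, differed by 0.27 and 0.18 as deposited, by -0.29 and -0.01 after quantile normalization again, and by 0.02 and -0.07 after median centring. SNF1, the kinase that inactivates Acc1, differed by 0.22 as deposited and by 0.07 and -0.03 under those rescalings, and the repressor OPI1 by 0.26, 0.15 and 0.01. SNF4, the activating subunit of the kinase, was 0.70 higher as deposited and 0.55 and 0.45 higher under them. TUP1, a general corepressor, differed by -0.67, and by -1.02 after quantile normalization again.

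Of 3 genes of electron transfer in the endoplasmic reticulum, 1 rose and none fell. CYB5, cytochrome b5, read 5.92 and 5.81 against 2.75, an 8.67-fold rise (limma adjusted p = 0.0116). Ole1 carries its own cytochrome b5 domain, and the reductase CBR1 read 8.02 and 8.08 against 8.04, with the wild type between the deletion arrays. NCP1, the other reductase, differed by -0.28 (limma adjusted p = 0.231). After median centring CBR1 differed by -0.24 (limma adjusted p = 0.0228) and NCP1 by -0.53 (limma adjusted p = 0.0311), both still under 2-fold.

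Of the 4 acyltransferases that place acyl chains on glycerol, none rose or fell (median 0.05, but -0.12 after quantile normalization again and -0.20 after median centring). GPT2, a glycerol-3-phosphate acyltransferase, differed by -0.94 and passed the 2-fold rule after either rescaling, at -1.02 and -1.19. Its isozyme SCT1 differed by -0.16, and the lysophosphatidate acyltransferases SLC1 and ALE1 were 0.26 and 0.61 higher.

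Of 3 activators of fatty acid breakdown genes, 1 fell. ADR1, which activates genes repressed by glucose, read 3.71 and 3.84 against 6.22, a 5.46-fold fall (limma adjusted p = 0.0171). OAF1 and PIP2, the pair that answers to oleate, differed by -0.55 and -0.31.

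**Figure D3:**
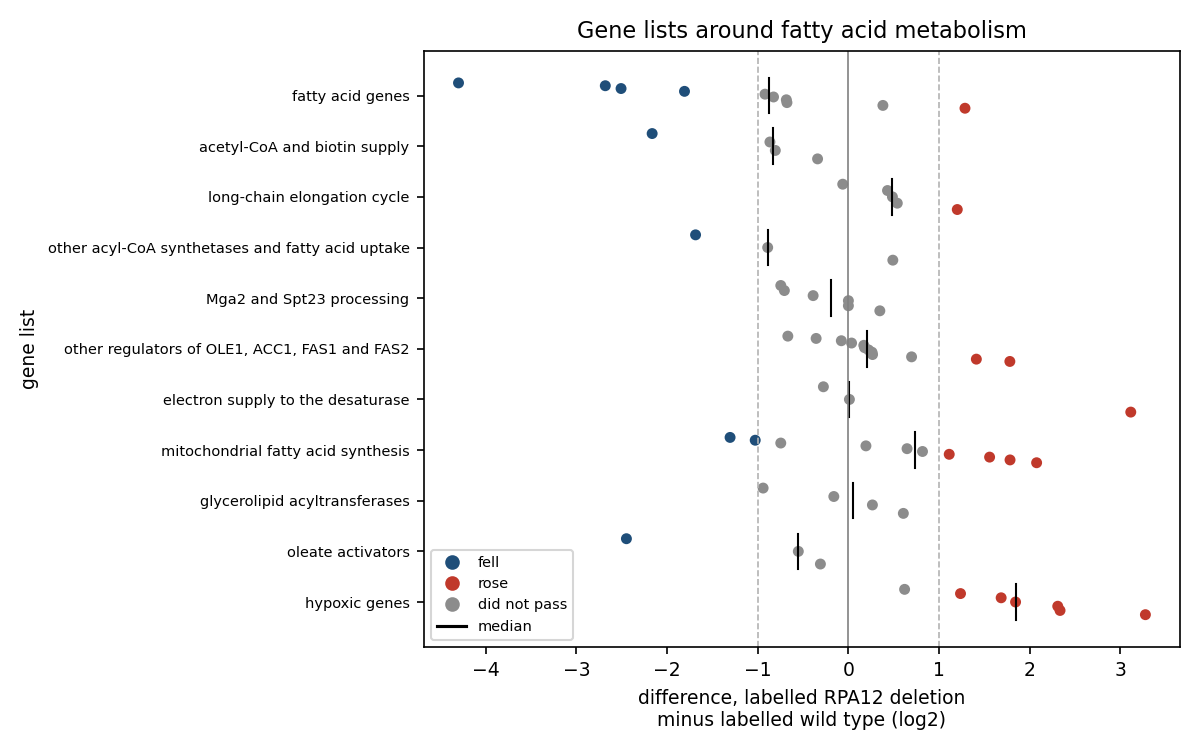
Difference of each gene (horizontal axis, log2, labelled RPA12 deletion minus wild type) in the 10 fatty acid genes and in 10 neighbouring lists (rows). Blue points fell, red points rose, grey points did not pass, and the black bar is the list's median, -0.87 for the fatty acid genes, 0.49 for elongation and 1.84 for the hypoxic genes.

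The scaling of the arrays moved sizes but no direction among the 10 genes. Median centring lowered the median of all tested probe sets by 0.25 and quantile normalization again lowered it by 0.15, and 6 and 5 of the 10 genes fell under them, with 1 rise under each. OLE1 stood at -4.55 and -4.37, FAA4 at -2.93 and -2.78, ACC1 at -2.76 and -2.55, and MGA2 at -2.06 and -2.20. ELO1 stood at 1.04 and 1.20, and FAA1 at 0.13 and 0.31. Over all tested probe sets the share of rises among calls was 70.0% as deposited, 55.9% after median centring and 56.6% after quantile normalization again.

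**Figure D4:**
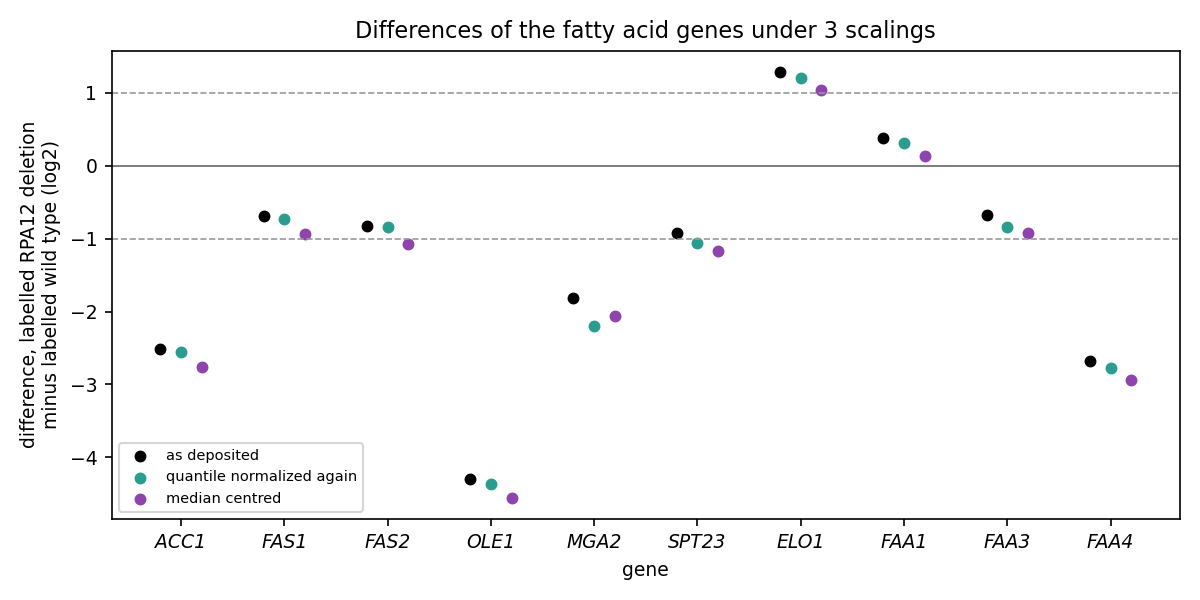
Difference of each of the 10 genes (vertical axis, log2, labelled RPA12 deletion minus wild type) as deposited, quantile normalized again and median centred, with dashed lines at a difference of 1 and -1. No gene crosses 0, and SPT23 and FAS2 cross the lower dashed line under at least 1 rescaling.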

How the data were processed

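The authors deposited log2 probe-set values made with RMA, and Affymetrix Expression Console is named beside it, per the submitters' processing notes. No source used here gives versions or says which arrays shared the RMA run. RMA forces the arrays of a run onto a shared distribution, which would hide a change of most transcripts. The deposited values of the tested probe sets did not share a distribution. Their median was 5.74 on each deletion array and 5.49 on the wild-type array. Quantile normalization again moved their median difference from 0.19 to 0.04. Whether the wild-type array was scaled apart from the deletion arrays was not tested. Probe sets were named from the platform annotation: of 10928, 5498 belonged to S. cerevisiae genes and were tested, with 12 symbols updated through the RefSeq gene table of assembly R64, and 1746 of another yeast served as background. The background level was their 95th percentile on each array.

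The difference is the mean of the 2 deletion arrays minus the wild-type array. The test was limma 3.58.1 (R 4.3.3; lmFit and eBayes, two-sided, Benjamini-Hochberg over all 5498), with 1 residual degree of freedom, and the lone wild-type array is assumed to vary like the others. In data simulated for this comparison with the observed ties, limma called 46.8% of 5298 unchanged probe sets, none of them also 2-fold apart. The full rule found 99 of 100 with a log2 change of 2 but 42 of 100 with a log2 change of 1. A log2 change of 1 lies on the 2-fold limit itself, so its estimates fall on either side, and 90 of those 100 passed limma's adjusted p. The simulated noise SD of 0.057 was that between the deletion arrays, so unchanged probe sets could hardly come 2-fold apart there. No difference of strain, handling or scaling between the groups was simulated. The simulation therefore does not show how many false calls the 2-fold rule makes in these data. Values were coarse, with 2250 and 2229 distinct values on the deletion arrays and 4384 on the wild-type array, and 434 tested probe sets had 1 value on all 3.

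The 10 genes and the 10 other lists (57 genes, all measured) were chosen with earlier results of these data known. Named were all 10 genes, each list gene past the 2-fold rule, every gene of lists of up to 6, RPA12, and the 2 genes on either side of OLE1 in the ranking. MET17, HIS3, LEU2, URA3, MFA2, ASG7 and BAR1 are from the fixed strain and cell type markers. The other genes named (OPI1, RAP1, ABF1, SNF1, SNF4, INO2, TUP1, HFA1, CYC7, ROX1 and HAP1) were chosen after their values were seen. Alternatives were 2 rescalings, leaving out each deletion array, a variance trend, a filter on dim probe sets, each condition of the call rule alone, and the dimmer probe set of a gene.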

Additional observations from a re-analysis of the deposited data

How the results depend on the processing

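Among 90 settings of single genes (10 genes under 9 alternatives), 82 kept their call and none changed direction. The other 8 gained a call: 5 by limma adjusted p alone, and FAS2 (median centring, -1.08) and SPT23 (both rescalings, -1.17 and -1.06). Only quantile normalization again could have changed a direction. Median centring shifts every difference by the same -0.25, and the smallest difference among the 10 genes was 0.38 in size. The variance trend, the dim filter, each condition of the call rule alone and the dimmer probe set reuse the deposited difference. Leaving out an array could not, since both deletion arrays lay on the same side of the wild type for all 10 genes. By limma adjusted p alone, 8 of the 10 genes were lower and 2 higher, and over all probe sets 2773 were higher and 1634 lower, counts that include the ties. Leaving out either deletion array, which leaves 1 array against 1 and only the 2-fold rule, gave 4 falls and 1 rise each time, and 1339 to 1343 rises and 601 to 609 falls over all probe sets. The variance trend, the filter on dim probe sets, the 2-fold rule with no test and the dimmer probe set (the 10 genes have 1 each) also gave 4 falls and 1 rise. Leaving out the wild-type array leaves no comparison. No paired analysis was possible because the wild type has 1 array and the groups share 1 replicate number. Differences near the background level are compressed, and none of the 10 genes lies at or below it.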

Other observations

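Genes that yeast turns on when oxygen is short were higher in the group labelled RPA12 deletion, while OLE1, which is also known to be induced at low oxygen through Mga2, was 19.7-fold lower there. There were 6 rises and no fall among 7 such genes (median difference 1.84), where 23.8% of all tested probe sets rose and 10.2% fell. HEM13, AAC3, TIR1 and DAN1 each had equal values on both deletion arrays, so their calls rest on the size of the difference alone. ANB1, the hypoxic form of translation factor eIF5A, read 7.10 and 7.22 against 3.88, a 9.69-fold rise (limma adjusted p = 0.0123). COX5B, the hypoxic subunit of cytochrome oxidase, rose 3.59-fold, and HEM13, an oxygen-dependent enzyme of haem synthesis, 3.22-fold. TIR1, a cell wall mannoprotein of cold and anaerobic cells, rose 5.05-fold. AAC3, the anaerobic ADP/ATP carrier, rose at least 4.17-fold, its wild-type reading being not above background. DAN1, another anaerobic mannoprotein, rose 2.36-fold, but its difference was 0.45 after quantile normalization again and 0.99 after median centring, both under 2-fold. CYC7, the hypoxic cytochrome c, was 0.62 higher. ROX1, the hypoxic repressor, differed by -0.08 as deposited, and by -0.22 after quantile normalization again and -0.33 after median centring. HAP1, a haem-responsive regulator, differed by 0.04, and by -0.0048 and -0.21 under those rescalings, so its direction is not settled.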
